A study of Mus musculus with 3 samples.

Results

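Small Cajal body RNAs (scaRNAs) were described in RNA bound to chromatin of mouse macrophages. The genes were chosen by annotation: a transcript of type scaRNA, or a symbol that starts with Scarna, in the deposited transcript tables. This gave 53 gene identifiers with 48 symbols, of 55536 annotated genes in all. Of the 53, 51 had the type scaRNA and 2 the type snoRNA, 9 carried a Scarna symbol, and 5 symbols belonged to a pair of identifiers each. The rule used no measured value, though earlier results of these data were known when it was set.

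The material was the chromatin fraction of macrophages cultured from bone marrow of the mouse strain C57BL/6J, which are phagocytes of innate immunity. All cells had received Lipid A, a TLR4 agonist from the bacterial outer membrane, at 100 ng/ml for 25 min. Total RNA depleted of ribosomal RNA was sequenced in 3 libraries of this 1 group, made from 1000 ng (replicate 1), 250 ng (replicate 2) and 500 ng (replicate 3) of RNA. No genetic change was listed, sex and age were not recorded, and no untreated group was analysed here, so no value shows a response to Lipid A. The labels number the libraries as biological replicates and name 1 donor entry for all, without saying whether the cells came from separate animals. The p-values below therefore refer only to these libraries and do not measure a spread between animals. They test a change with RNA amount, in fits that share their estimate of spread across genes.

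scaRNAs are guide RNAs of the Cajal body, a nuclear compartment built on the scaffold protein coilin. Box C/D guides direct 2′-O-methylation and box H/ACA guides direct pseudouridylation, here of the small nuclear RNAs (snRNAs) of the spliceosome. Most are cut out of introns of a host transcript, while some, such as SCARNA2 in human cells, have a promoter of their own. The CAB box, bound by Wrap53, keeps H/ACA guides in the Cajal body, and runs of UG dinucleotides have been described as localization elements of some box C/D guides.

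The gene tables held 13318787, 19162053 and 19147923 expected counts on annotated genes in replicates 1, 2 and 3. The limit that a count of 0 allows (3 counts, counting error only) was 0.225, 0.157 and 0.157 CPM (counts scaled to library size). Transcripts of the ribosomal DNA locus (Gm26917, Gm42418 and CT010467.1) took 8.59%, 27.2% and 23.2% of the counts, the lowest share in replicate 1. All 8 macrophage markers, such as Csf1r, had a mean of at least 1 TPM (length-scaled transcript abundance), and none of the 19 markers of T cells, B cells, neutrophils, erythroid, stromal, endothelial or mast cells did.

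The sequences of the abundant genes showed box elements of their class, though not each element in every gene (GENCODE M21 transcripts on mm10, written as DNA 5′ to 3′). Scarna6 (chr1:87784556-87784820, plus strand) and Gm25395 (chr1:87776938-87777209, plus strand) lie 7346 bases apart within introns of Atg16l1, an autophagy gene. They are shown whole because they share their ends and a host but not their level. Capitals mark TGATGA, the core of box C, in the first 15 bases and CTGA, box D, in the last 15, and other copies of these letters stay in lower case.
Scarna6: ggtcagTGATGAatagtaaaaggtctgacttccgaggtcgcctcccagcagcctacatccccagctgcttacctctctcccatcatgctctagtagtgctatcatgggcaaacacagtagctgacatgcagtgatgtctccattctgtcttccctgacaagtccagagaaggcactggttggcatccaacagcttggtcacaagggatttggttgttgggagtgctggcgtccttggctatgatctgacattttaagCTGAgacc
Gm25395: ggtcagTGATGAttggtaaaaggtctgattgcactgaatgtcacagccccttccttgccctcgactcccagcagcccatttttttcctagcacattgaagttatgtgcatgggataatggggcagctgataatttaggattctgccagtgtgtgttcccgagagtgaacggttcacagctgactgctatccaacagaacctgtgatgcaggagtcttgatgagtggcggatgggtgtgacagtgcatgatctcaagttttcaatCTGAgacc
They were identical at 184 of 294 aligned positions (62.6%), and the first 12 bases were the same in both.

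Scarna10, known as U85, carries both box types and guides modification of U5. Its first 60 bases (chr6:125186624-125186683, minus strand) and last 60 bases (chr6:125186359-125186418) are shown because its ends hold the same pair of boxes, marked in the same way.
Scarna10, first 60: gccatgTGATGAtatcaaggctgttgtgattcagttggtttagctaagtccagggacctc
Scarna10, last 60: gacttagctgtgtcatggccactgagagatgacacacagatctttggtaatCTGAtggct

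Gm22009, which lies in an intron of the importin gene Kpna4 as human SCARNA7 does, and Scarna2, a guide for U2, are shown because their levels differed most between libraries among the 6 abundant genes. Capitals mark runs of at least 4 TG units, TGATGA in the first 15 bases of Gm22009 and wherever it occurs in the last stretch of Scarna2, and CTGA in the last 15 bases of Scarna2. Gm22009 is given for bases 1 to 180 (chr3:69085268-69085447, minus strand), and Scarna2 for bases 1 to 150 (chr3:108554602-108554751, minus strand) and 335 to 414 (chr3:108554338-108554417).
Gm22009, 1 to 180: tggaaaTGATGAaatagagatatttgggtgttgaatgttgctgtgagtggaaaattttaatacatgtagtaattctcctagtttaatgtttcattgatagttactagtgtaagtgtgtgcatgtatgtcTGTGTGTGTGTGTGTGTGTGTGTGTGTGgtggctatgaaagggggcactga
Scarna2, 1 to 150: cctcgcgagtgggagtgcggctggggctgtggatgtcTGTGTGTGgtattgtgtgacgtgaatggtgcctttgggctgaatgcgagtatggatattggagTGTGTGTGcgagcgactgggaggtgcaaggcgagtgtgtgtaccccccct
Scarna2, 335 to 414: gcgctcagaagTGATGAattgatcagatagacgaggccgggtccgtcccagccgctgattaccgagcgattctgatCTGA
Gm22009 had 14 TG units at bases 130 to 157. Scarna2 had 4 units at bases 38 to 45 and 4 at bases 101 to 108, and it had no TGATGA in its first 15 bases. Among the 3 scaRNA genes of at least 343 bases, TGTGTGTG occurred in the first 343 of these 2. The same stretch held it in 2.08% of 128307 other transcripts. The third gene, Gm27414, had no counts in either deposited quantification. That window is the length of Gm22009 itself. It left out the shorter abundant genes Scarna10, Gm25395, Scarna13 and Scarna6, which lack TGTGTGTG. The window was thus fitted to a gene that holds the run, so this count cannot show whether TG runs set scaRNA genes apart.

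Box H/ACA genes are represented by Scarna13 (chr12:105031075-105031349, minus strand), the longest that was counted, and by Gm25492 (chr5:135053988-135054116, minus strand), the shortest. Capitals mark ACA placed 3 bases before the end.
Scarna13: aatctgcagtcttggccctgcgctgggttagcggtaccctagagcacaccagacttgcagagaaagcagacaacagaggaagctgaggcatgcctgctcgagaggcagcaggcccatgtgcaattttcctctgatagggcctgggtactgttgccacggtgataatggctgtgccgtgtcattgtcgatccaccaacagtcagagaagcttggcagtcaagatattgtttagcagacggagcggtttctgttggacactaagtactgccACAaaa
Gm25492: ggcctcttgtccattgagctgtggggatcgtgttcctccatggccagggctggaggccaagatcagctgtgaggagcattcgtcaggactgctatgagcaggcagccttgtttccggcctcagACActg

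Over all 53 genes, searched on the transcript strand, TGATGA stood in the first 15 bases of 7 (13.2%), against 20.5% of 1505 snoRNA genes and 0.5% of 140935 other transcripts. CTGA stood in the last 15 bases of 11 (20.8%), against 31.3% and 7.09%. ACA stood 3 bases before the end of 25 (47.2%), against 18.3% and 2.44%. TGAG, a form of the CAB box, was in the first 140 bases of 8 of the 18 genes at least that long (44.4%). The share was 46.6% in snoRNA genes and 52.7% in other transcripts. The 18 include box C/D genes and leave out the many genes under 140 bases. That count therefore cannot show whether the CAB box sets the scaRNA genes apart. Near-identical copies share these letters and are not independent of each other.

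Few of the annotated genes were counted. With a minimum of 10 expected counts in every library, 10 of the 53 (18.9%) passed, 6 had some counts but no more than 7 in a library, and 37 had none. The same minimum was passed by 3.26% of 1505 snoRNA genes, 2.02% of 1385 snRNA genes and 25% of all genes. The median of the mean TPM was 0 over the 53 genes and also 0 over snoRNA, snRNA and all genes. Together the 53 genes took 0.284%, 0.340% and 0.281% of the counts in replicates 1, 2 and 3 (mean 0.302%, SD 0.0332, n = 3). Scarna10, Gm22009 and Scarna2 alone held 87.5%, 90.8% and 88.1% of that share. Below, counts and levels follow the order replicate 1, 2 and 3.

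The mixed guide Scarna10 had the highest mean level. It had 22542, 19258.9 and 22471.9 counts, or 10052, 8143 and 9785 TPM, with a mean of 9327 ± 1033 (SD, n = 3). It ranked between 18 and 20 of all genes by TPM in each library. By this TPM its libraries lay close together, but by CPM, without the effective length, it had 1692, 1005 and 1174, the highest in replicate 1. In the other deposited quantification (kallisto-type) it had 8265, 3827 and 5441 TPM, also highest in replicate 1.

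Gm22009 had 7549, 23438 and 15368 counts, or 2983, 8627 and 5833 TPM (5814 ± 2822, SD, n = 3). Scarna2 had 3003, 16460 and 9613 counts, or 809, 3891 and 2359 TPM (2353 ± 1541, SD, n = 3). Both were lowest in replicate 1 and highest in replicate 2. In replicate 2 Gm22009 was above Scarna10, and in the other two it was below, so the order of these neighbours was not the same in all libraries.

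Gm25395 had 2754, 3044 and 4014 counts, or 1921, 2128 and 2885 TPM (2311 ± 508, SD, n = 3). Scarna6, its neighbour in Atg16l1, had 475, 1083 and 945 counts, or 356, 820 and 736 TPM (637 ± 247, SD, n = 3). Every library had more Gm25395 than Scarna6, and the values of the genes did not overlap. Gm25395 and Scarna2 differed by less than their spread in mean TPM, and their order changed between libraries.

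The H/ACA gene Scarna13 had 1292, 1705 and 1305 counts, or 874, 1153 and 907 TPM (978 ± 152, SD, n = 3). The 4 remaining genes had few counts. Gm26083 had 104.7, 51.2 and 54.7, and was highest in replicate 1. Gm23119 had 38, 51 and 47 counts, Gm22442 had 19, 28 and 21, and Gm25492 had 17, 20 and 23. Gm23119 lies 91 bases from Scarna17, in no annotated host.

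TPM of the shortest genes rest on lengths near 0. RSEM's effective length, the number of positions where a fragment could start, was 127.29, 97.25 and 100.81 nt for Scarna10 of 325 nt. It was 1.78, 1.4 and 1.39 nt for Gm25492 of 129 nt, so its 17, 20 and 23 counts became 541, 588 and 724 TPM. On counts scaled to annotated length and library size (RPKM), Scarna10 had 3970 ± 1102 and Gm25492 had 9.10 ± 0.920 (SD, n = 3). The ratio between those genes thus depends on the length used. The order Scarna10, Gm22009, Scarna2, Gm25395, Scarna13, Scarna6 by mean value was the same on both scales, while Gm23119 stood above Scarna6 in mean TPM (676 ± 93.5, SD, n = 3) and below it in RPKM (18.97 ± 1.42 against 178 ± 39.98, SD, n = 3).

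**Figure D1:**
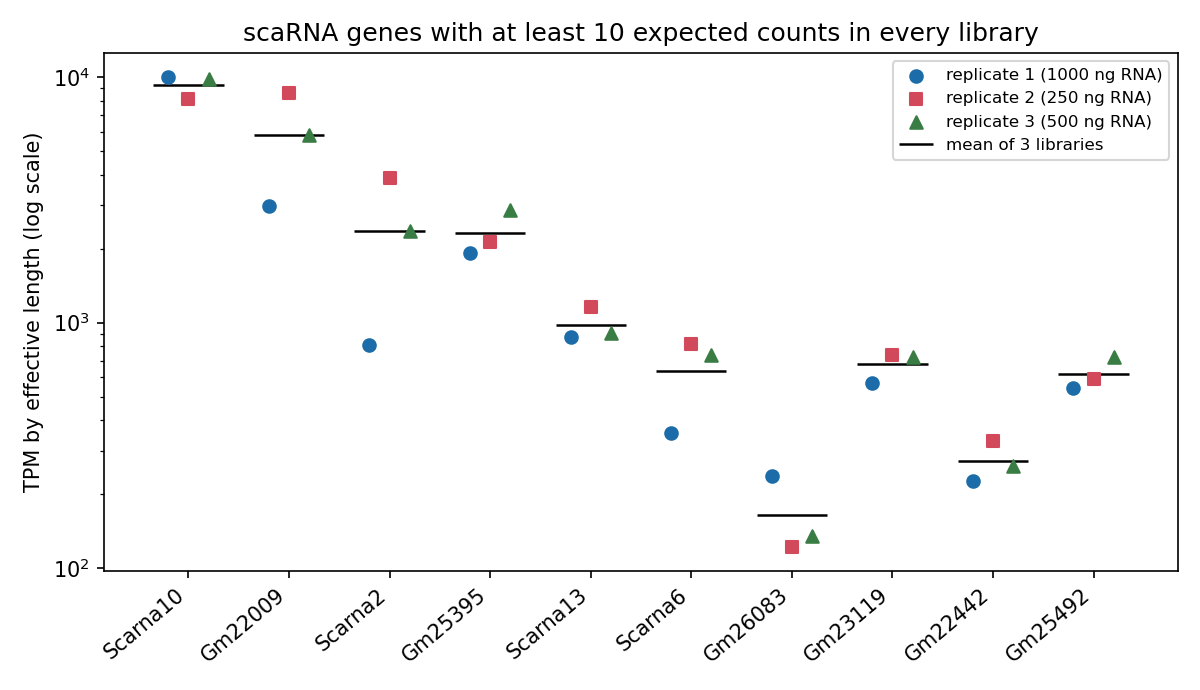
TPM (log axis) of the 10 scaRNA genes with at least 10 expected counts in every library; points are libraries and black lines the mean of 3. Scarna10 sits between 8143 and 10052 TPM, while Gm22009 and Scarna2 are lowest in replicate 1.

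Longer genes were counted more often. Of the 9 genes of 250 nt or more, 6 were counted, and Gm25624, Gm26489 and Gm27414 were not. Of the 36 genes of 100 to 144 nt, 3 were counted, and of the 5 shorter than 100 nt none was. The effective length was under 5 nt in 41 of the 53 genes in each library. It was exactly 0 in 5, 8 and 8 genes, which RSEM cannot count. A lack of counts in genes of this size therefore sets no limit on the RNA itself. The snoRNA genes showed the same order, with 0 of 457 counted under 100 nt and 2.81% of 995 from 100 nt to under 150 nt.

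The kallisto-type transcript table of the same libraries gave counts to many of the short genes. In it 22 of the 53 genes had at least 10 estimated counts in every library, 12 of them uncounted in the gene table and 11 of those with no count there at all. Scarna17, of 79 nt and no host, had 74, 117 and 105 estimated counts. Scarna9, a U2 guide of 70 nt in Cep295, had 20, 98 and 72, and was lowest in replicate 1. Gm23751, in the chromatin remodeller gene Chd4, had 76, 42 and 29, the highest value again in replicate 1. The pair Scarna3a and Scarna3b had 12, 11 and 12 and 17, 21 and 21. Another 12 genes had fewer counts, none over 14 in a library, and 16 genes had none in either table.

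For the 6 counted genes of 250 nt or more, the kallisto-type count was 1.03 to 1.31 times the RSEM-type count in every library. For Gm22442, of 144 nt, it was 28.7, 34.4 and 35.2 times as high (545, 964 and 739 counts). The effective length given to that gene was 4.74, 3.5 and 3.54 nt in the RSEM-type table and 24.9, 26.6 and 27.7 nt in the other. For Gm23119 the ratio was 7.84, 7.12 and 7.28. Counts of genes under 150 nt therefore depend on the quantification. TPM of long genes differed as well. Scarna10 had a mean of 5844 ± 2246 kallisto-type TPM against 9327 ± 1033 RSEM-type TPM (SD, n = 3). Gm22009 had 3387 ± 821 against 5814 ± 2822 (SD, n = 3). Which quantification is nearer to the RNA present was not tested.

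**Figure D2:**
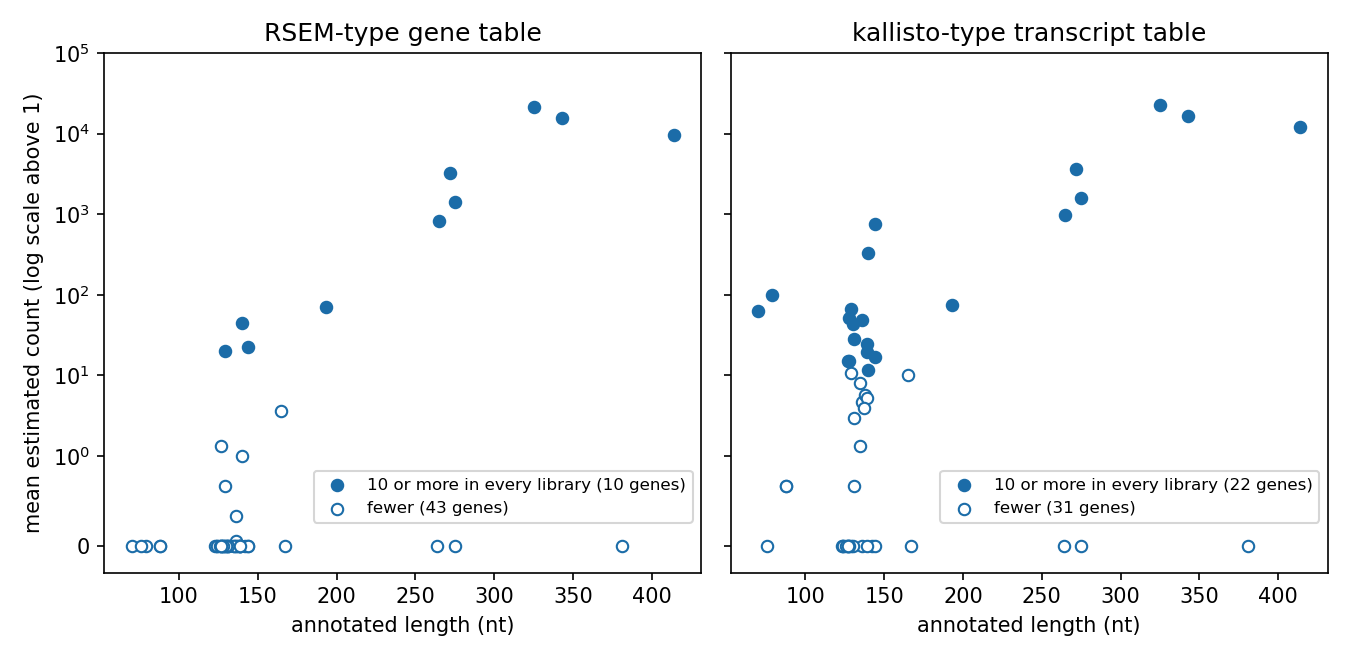
Mean estimated count of each of the 53 scaRNA genes (axis linear below 1 and logarithmic above) against annotated length in nt, in both deposited quantifications; filled points have at least 10 counts in every library. The kallisto-type panel has 22 filled points against 10, and the added ones are all shorter than 150 nt.

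Most scaRNA genes lay inside another gene on the same strand. A host was annotated for 33 of the 53, of which 8 were counted in the gene table and 18 in the kallisto-type table. Of the 20 without such a host, 2 (Scarna2 and Gm23119) and 4 were counted, and 15 lay in no annotated gene on either strand. All 8 counted genes with a host had a higher TPM than the host in every library. Host values count reads on annotated exons, and intron reads of unspliced host RNA, abundant on chromatin, were not separated from reads of the scaRNA. Their part in the scaRNA counts was not tested.

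Ncapd2, a condensin subunit gene and the host of Scarna10, had 5.21, 13.37 and 6.30 TPM, so that Scarna10 was 1929, 609 and 1553 times as high. By kallisto-type TPM Scarna10 was 1099, 281 and 731 times as high as Ncapd2. Scarna10 overlaps an annotated exon of Ncapd2, so reads may be shared between them. Kpna4 had 20.54, 13.37 and 14.61 TPM, and Gm22009 was 145, 645 and 399 times as high. By kallisto-type TPM Gm22009 was 27.4, 79.5 and 71.9 times as high as Kpna4, so the size of these multiples depended on the quantification. Kpna4 was highest in the library where Gm22009 was lowest.

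Atg16l1 had 36.58, 44.46 and 43.27 TPM. Gm25395 was 52.5, 47.9 and 66.7 times as high as this host, and Scarna6 9.74, 18.4 and 17.0 times. By kallisto-type TPM the multiples were 23.1, 15.5 and 21.5 for Gm25395 and 4.61, 5.92 and 5.62 for Scarna6. Within 1 host, the 2 guides thus stood at different multiples of it. Snhg10, the noncoding host of Scarna13, had 0.35 TPM in replicate 1 and was listed at 0 in the others, so no fold is given. Snhg20, the noncoding host of Gm26083, had 2.87, 9.24 and 7.63 TPM, and Gm26083 overlaps one of its exons.

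Chd3, a chromatin remodeller gene, had 49.31, 77.74 and 79.55 TPM, and Gm22442 in its intron was 4.61, 4.23 and 3.28 times as high by TPM. By annotated length (RPKM) Gm22442 was below Chd3, at 0.382, 0.272 and 0.221 of its level. By kallisto-type TPM it was 20.1, 15.1 and 11.6 times as high as Chd3. On RSEM-type counts the direction for this pair turned with the length used, and the other 7 kept it where the host was above 0. Bud23, a methyltransferase gene and host of Gm25492, had 19.09, 22.41 and 24.72 TPM. Gm25492 was 28.4, 26.2 and 29.3 times as high by TPM, and 4.34, 2.37 and 2.93 times by RPKM. In the kallisto-type table it was 1.71, 0.945 and 0.929 times as high, so the order of this pair also changed with the quantification.

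**Figure D3:**
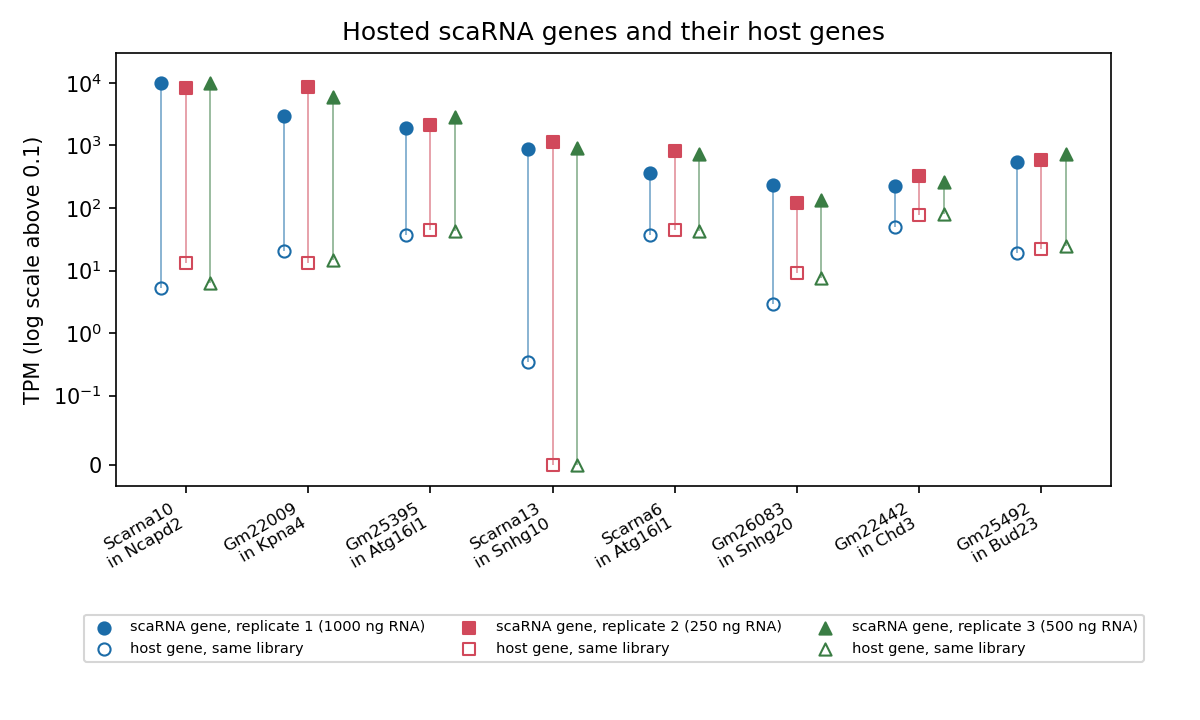
TPM (axis linear below 0.1 and logarithmic above) of the 8 counted scaRNA genes that lie in a host gene (filled) and of the host in the same library (open). Every filled point is above its open partner; Snhg10 is listed at 0 in replicates 2 and 3.

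Sequence families joined counted genes to copies without counts. At an identity of at least 70% over at least 80% of the shorter gene, 32 of the 53 genes fell into 7 families of 2 to 12 genes, and 21 stood alone. The family of 12 held Gm25820, Gm23370, Gm26413, Gm22897 and Gm22813 with 2 overlapping identifiers each, plus Gm25058 and Gm25825. None of its identifiers was counted in the gene table and 4 were in the kallisto-type table. The highest there was a Gm25820 identifier in Khdc4, with 61, 59.0049 and 36.72 counts. Reads of copies this similar can be split between them, so single values are uncertain.

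Scarna13 had 2 relatives without a host, Gm26489 (81.7% identity) and Gm25624 (80.7%), and neither had a count in either table. Gm22442 and its copy Gm23386 are shown because 136 of their 144 bases are the same (94.4%), while Gm23386 had no counts in either table. Gm22442 lies in an intron of Chd3 (chr11:69350518-69350661, minus strand), and Gm23386 (chr11:19693155-19693298, minus strand) in no annotated gene. Capitals mark the 8 differing bases.
Gm22442: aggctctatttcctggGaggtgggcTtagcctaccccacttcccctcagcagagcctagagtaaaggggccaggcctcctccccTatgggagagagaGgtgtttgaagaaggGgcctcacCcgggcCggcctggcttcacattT
Gm23386: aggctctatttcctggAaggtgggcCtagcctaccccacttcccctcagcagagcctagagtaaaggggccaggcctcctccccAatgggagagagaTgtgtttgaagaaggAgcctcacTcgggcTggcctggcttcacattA
Counted from 1 at the 5′ end of Gm22442, with its base first, they are G17A, T26C, T85A, G98T, G113A, C121T, C127T and T144A. Across the families of 2 or more with a gene counted in the kallisto-type table, 13 genes lacked a host, and 2 of those, Gm23119 and Scarna17, were counted.

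The RNA amount was the only labelled difference between the libraries, and each amount had 1 library. Amount and library therefore cannot be told apart. Scarna2 and Gm22009 were lower in libraries made from more RNA, and no scaRNA gene passed the test in the other direction. In edgeR's quasi-likelihood fit on log2 amount (1 residual degree of freedom), 15077 genes were tested and 661 (4.38%) had an adjusted p under 0.05, 449 (2.98%) higher and 212 (1.41%) lower with more RNA. Of the 10 scaRNA genes tested, 2 were called, both lower, and 4 had an unadjusted p under 0.05, as did 21.5% of all tested genes. DESeq2 called Scarna2 and Gm22009 among the 6 it tested, and 4.36% of all genes. The median change of the 10 was -0.08 log2 units per doubling against -0.01 over all tested genes.

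Scarna2 had 202, 925 and 522 CPM after TMM scaling (edgeR's correction for library composition) in replicates 1, 2 and 3. It fell by 1.10 log2 units per doubling of RNA (SE 0.139, edgeR adjusted p = 0.000341), and the highest library was 4.58 times the lowest. Gm22009 had 508, 1318 and 835 CPM on this scale. It fell by 0.69 log2 units per doubling (SE 0.129, edgeR adjusted p = 0.00445), with 2.60 times between the extremes. With 1 library left out, the change ran from -0.82 to -1.37 for Scarna2 and from -0.66 to -0.72 for Gm22009. Both genes fell at each step of amount, so the shared direction of these pairs adds no support.

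The other large changes did not pass. Gm26083 had 7.06, 2.87 and 2.99 CPM after TMM scaling and a change of 0.67 log2 units per doubling (SE 0.225, edgeR adjusted p = 0.0940). Without replicate 1 its change was 0.06, so the value rests on that library. Scarna6 had 32.0, 60.9 and 51.3 CPM and a change of -0.46 (SE 0.146, edgeR adjusted p = 0.0774), which was -0.25 without replicate 1 and -0.68 without replicate 2. With the amount on a linear scale both passed, Gm26083 with an adjusted p of 0.00661 and Scarna6 with 0.00211 in edgeR. That scale called 19.4% of all genes. Gm26083 also passed with no filter on low counts (edgeR adjusted p = 0.0375), where 4.84% of all genes were called.

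Scarna10 ran from 1083 to 1516 CPM, with a change of 0.24 (SE 0.127, edgeR adjusted p = 0.282). Gm22442 completed the 6 largest changes, at -0.16 (SE 0.310, edgeR adjusted p = 0.809). Values of the other 4 genes, Gm23119, Scarna13, Gm25395 and Gm25492, lay between -0.08 and 0.06, with adjusted p from 0.804 to 0.985 in edgeR. With 1 library left out, Scarna13 ran from -0.43 to 0.29 and Gm25395 from -0.24 to 0.35. Gm22442 likewise ran from -0.46 to 0.16.

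The spread of Scarna2 over the 3 libraries was large beside that of tested genes with a mean count of at least 100. Its coefficient of variation (SD over mean) was 65.9% and that of Gm22009 45.9%, against a median of 17.4% over the 8787 tested genes with a mean count of at least 100. Of those genes 98.7% varied less than Scarna2 and 94.6% less than Gm22009. Gm25395, at 12.6%, and Scarna13, at 14.9%, were below that median.

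**Figure D4:**
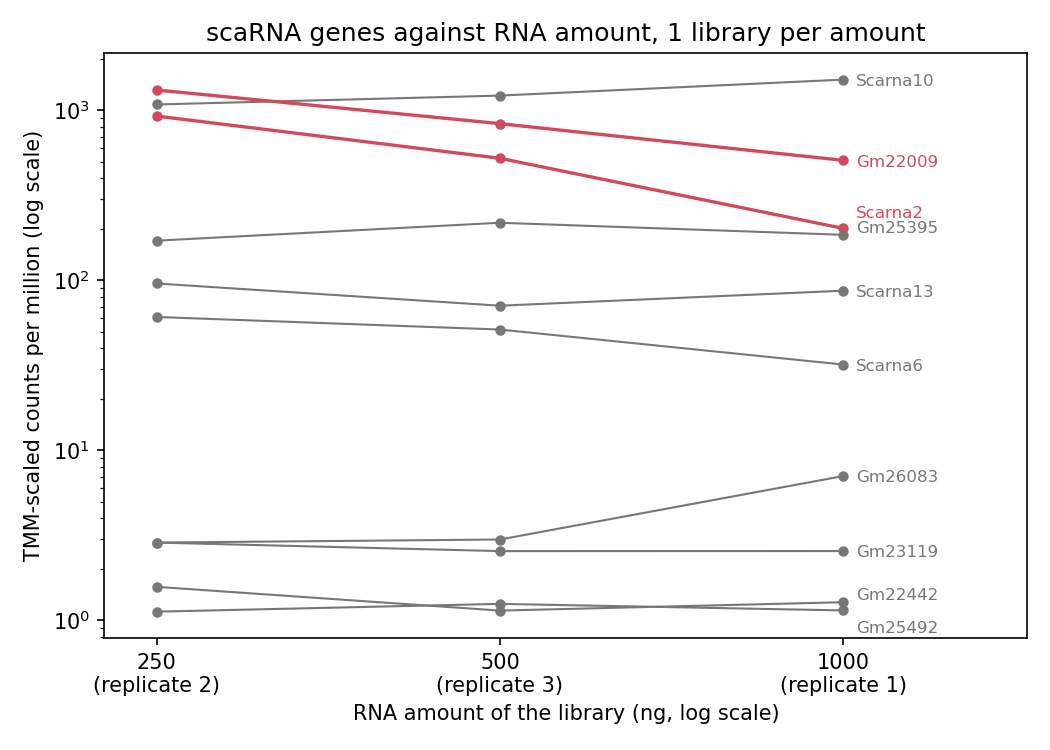
CPM after TMM scaling (log axis) of the 10 tested scaRNA genes against the RNA amount of the library (ng, log axis), 1 library per amount. Scarna2 and Gm22009, in red, pass the edgeR test and fall from 925 to 202 and from 1318 to 508; the grey genes do not pass.

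Other library features moved with the amount. The ribosomal DNA locus took its lowest share in the 1000 ng library and its highest in the 250 ng library. With those transcripts removed, Scarna2 changed by -1.10 and Gm22009 by -0.69, as large as before. Both fits used TMM scaling, which already corrects for composition, so the removal could hardly move these values. The part of the ribosomal DNA share in the changes was not tested. The RSEM-type effective length of Scarna10 above was also longest in the 1000 ng library. Its kallisto-type effective length was nearly the same in all, at 147.1, 147.0 and 146.4 nt in replicates 1, 2 and 3. Effective length shrinks as sequenced fragments get longer, and the part of fragment size in the changes was not tested. Of 28 snRNA genes tested, 22 were higher and none lower with more RNA in edgeR, but many are near-identical copies that share reads. Of 57 snoRNA genes tested, 5 were higher and 11 lower.

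Host genes did not all follow their scaRNA. Ncapd2 fell by 0.77 log2 units per doubling (SE 0.153, edgeR adjusted p = 0.00641) and Snhg20 fell by 1.19 (SE 0.244, edgeR adjusted p = 0.00870), while Scarna10 and Gm26083 had positive values that did not pass. Kpna4 had 0.34 (SE 0.138, edgeR adjusted p = 0.161) beside the fall of Gm22009. Atg16l1, Chd3 and Bud23 had -0.18, -0.39 and -0.41, with adjusted p of 0.452, 0.0956 and 0.219 in edgeR. Differences between a host and its scaRNA were not tested.

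Transcripts of the proteins that build and place these RNAs were present at low to moderate levels. Among the 6 H/ACA proteins, Dkc1, the pseudouridine synthase, was highest at 6.62 ± 1.23 TPM, followed by Nhp2 (5.23 ± 2.81) and Gar1 (2.64 ± 1.03), and Nop10 was lowest (0.233 ± 0.176, SD, n = 3). Among the 5 C/D proteins, Nop56 had 21.4 ± 3.52, Nop58 11.1 ± 2.53, Fbl, the methyltransferase fibrillarin, 7.78 ± 2.66, and Snu13 the least at 1.69 ± 0.101 TPM. The medians of these lists were 2.47 and 7.78 TPM, beside 0 over all genes and 5.15 over all genes counted in every library.

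Of 22 genes for Cajal bodies and trafficking, 18 had a mean of at least 1 TPM. Tgs1, which forms the trimethyl cap, had 16.2 ± 3.58 TPM, Sart3, a U6 recycling factor, 12.3 ± 2.98, and Usb1, which trims U6, 12.1 ± 3.32, while Gemin6 of the SMN complex was lowest at 0.0833 ± 0.0208 (SD, n = 3). Telomerase RNA, Terc, itself an H/ACA RNA with a CAB box, had 3.09 ± 0.272 TPM, and Tert had 0.02 ± 0.02 (SD, n = 3). Of 12 snRNA transcription genes 10 reached 1 TPM, led by Snapc4 (26.8 ± 5.96), Snapc3 (25.3 ± 2.40) and Ice1 (22.8 ± 0.993), with Snapc2 lowest (0.410 ± 0.150, SD, n = 3).

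Of the 43 genes of these lists tested against RNA amount, 1 was called by edgeR, 9 had an unadjusted p under 0.05, and DESeq2 called 1 of 24. Over all genes 4.38% were called by edgeR, 21.5% had an unadjusted p under 0.05, and DESeq2 called 4.36%. By these counts the listed genes were near the background. Ints1, a subunit of the Integrator complex that cleaves snRNA precursors, fell by 0.59 (SE 0.152, edgeR adjusted p = 0.0339). The median change over the listed genes was -0.21 log2 units per doubling, against -0.01 over all tested genes, and this difference was not tested.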

How the data were processed

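Each of the 3 libraries had a gene table with expected counts and TPM under RSEM's column names and a transcript table with estimated counts and TPM under kallisto's, as deposited by the authors, per the file headers. The authors scaled TPM by effective length over all entries. The files refer to mm10 and GENCODE M21, per the deposited readme files. Neither the aligner, its version nor the strand setting is given in the sources used here, so reads of antisense genes cannot be told apart. Groups, replicate numbers and RNA amounts came from the labels.

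The members and gene lists were chosen with earlier results of these data known. Members with a mean of at least 10 expected counts are named, the 6 with the largest changes with full statistics, and the 3 highest and the lowest gene of each list. Genes under that minimum (Scarna17, Scarna9, Gm23751 and other genes named from the kallisto-type table, and the uncounted copies) and Ints1 were named after their values were seen. A host is an annotated gene that holds the member on the same strand. Copies were compared by global alignment (Biopython 1.88). RPKM used exon bases and counts on genes.

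Expected counts were rounded and fitted on log2 RNA amount with the quasi-likelihood F test of edgeR 4.0.16 (after filterByExpr and TMM scaling, Benjamini-Hochberg over all tested genes), tRNA and spike-in entries left out. The SE came from the F statistic. The script was tested on simulated data. Alternatives were DESeq2 1.42.0, RLE factors, no count filter, the kallisto-type counts, other count minimums and length scales, a linear amount, removal of ribosomal DNA locus genes, and leaving out each library. Other steps used Python 3.11.15 and R 4.3.3.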

Additional observations from a re-analysis of the deposited data

How the results depend on the processing

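The number of scaRNA genes counted in every library was 10, and 22 in the kallisto-type table; minimums of 50 and 1 gave 7 and 11, and it stayed 10 without each library. The median level over the 53 genes was 0 TPM, 8.55 in the kallisto-type table, and 827 over only the 10 counted genes. The mean share of counts, 0.302%, became 0.381% without the ribosomal DNA locus genes and 0.207% in the kallisto-type table, and ran from 0.283% to 0.312% with 1 library left out. The count of scaRNA genes above their host was 8 of 8, 7 by annotated length, 12 of 18 in the kallisto-type table, and 8 without each library. With a linear amount, 4 scaRNA genes and 2923 of all genes were called, against 2 and 661; with no count filter 3 and 1181; with DESeq2 2 and 362. Scarna2 and Gm22009 were called under all 6 alternatives with a test. With all libraries, sign switches were seen for Gm23119 (0.021 with kallisto-type counts) and Gm25492 (-0.21 with kallisto-type counts, -0.0016 per 250 ng), not called in either. Without replicate 2, Gm22442 (0.16), Scarna13 (0.29), Gm25395 (-0.24), Gm23119 (0.0014) and Gm25492 (-0.13) also switched. The causes were not tested. With 1 library left out, 2 libraries leave no test, so no count of calls was made. No paired analysis was possible because there is 1 group. Depth limits genes with few counts, such as Gm22442 and Gm25492.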
